A study of Mus musculus with 10 samples.

Results

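The 8 genes described here are Malat1, Neat1, Meg3, Rian, Mirg, Miat, Snhg11 and Gm14033, taken by name from the 55536 mouse genes of the count tables as long noncoding RNAs of the brain. Their levels were compared in cerebellum and cerebral cortex of Snx14-KO and control mice. Snx14 encodes a membrane-bound sorting nexin with a role in lipid homeostasis. The KO mice carried a frameshift deletion of 1 base in both copies of Snx14, and all mice were 1 year old. Controls 1 and 2 were heterozygous (Het) and control 3 was wild type (WT). Each of the 3 control and 2 KO mice gave 1 cerebellum and 1 cortex library, so there were 10 libraries. The label cell type reads mix, so each library holds the RNA of whole tissue. Fewer cells of a type and less RNA per cell cannot be told apart in such data.

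The first 7 genes were chosen by name as known RNAs of high level, and Gm14033 was selected on its fall in KO against control cerebellum in these libraries. The values of Gm14033 are therefore given as a description, with no test. Of the 8 genes, 6 are annotated as lincRNA, Rian as a processed transcript, and Snhg11 as protein coding although it is named as a small nucleolar RNA host.

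Long noncoding RNAs act as RNA rather than as templates for protein. Malat1 gathers in nuclear speckles, bodies rich in splicing factors, and Neat1 is the scaffold of paraspeckles, which hold proteins such as Sfpq and Nono. Meg3, Rian and Mirg lie one after another in the Dlk1-Dio3 imprinted region and are made from the maternal chromosome. Rian hosts many small nucleolar RNAs and Mirg a cluster of microRNAs, some of which are studied in neurons. Miat, also called Gomafu, is a nuclear RNA of neurons whose repeated UACUAAC motif resembles the intron branch point and binds splicing proteins. Nothing is stated here about a function of Gm14033.

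In GRCm38, the position of Malat1 is chromosome 19, from 5795690 to 5802672 and that of Neat1 from 5824708 to 5845478, both on the minus strand. Meg3 lies on chromosome 12 from 109541001 to 109571726, Rian from 109603940 to 109661716 and Mirg from 109729764 to 109749460, all on the plus strand. On chromosome 5 Miat covers 112213228 to 112229395, minus strand. Snhg11 and Gm14033 lie on the plus strand of chromosome 2, from 158375638 to 158386145 and from 55411790 to 55433435.

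The longest annotated Miat transcript, Miat-205 of GENCODE M21, has 9163 bases and holds the letters TACTAAC 6 times on its own strand. They fall into 2 stretches of exon 7, shown here because this repeat is the feature Miat is known for, with each match in capitals.
Miat-205, chr5:112217309-112217460, minus strand: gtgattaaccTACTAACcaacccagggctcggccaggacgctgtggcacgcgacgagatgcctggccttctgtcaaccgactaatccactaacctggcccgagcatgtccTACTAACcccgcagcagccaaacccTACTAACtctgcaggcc
Miat-205, chr5:112216752-112216812, minus strand: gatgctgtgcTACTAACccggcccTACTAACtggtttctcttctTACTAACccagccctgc
Of all 141767 transcripts in GENCODE M21, 3.60% hold the motif at least once. As many as 6 copies stood in 2 of the 761 transcripts of 8247 to 10079 bases (0.263%), both of them Miat transcripts. Over transcripts of all lengths, 5 held at least 6 copies, these 2 among them. The longest transcript of Neat1 holds 1 copy, and those of the other 6 genes hold 0.

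Gm14033 carries the largest difference between genotypes among the 8 genes and has no name beyond its number, so its first exon in transcript Gm14033-201 (2265 bases, 7 exons) is shown.
Gm14033-201, chr2:55411815-55411891, plus strand: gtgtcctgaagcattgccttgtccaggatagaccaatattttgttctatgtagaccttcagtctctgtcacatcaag

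The start of Meg3 is the first of the 3 imprinted genes in the direction of transcription, and its RefSeq promoter (GRCm38.p6) is shown because Meg3, Rian and Mirg are compared with each other below. The capitals mark TGACGTCA, the cyclic AMP response element, which reads the same on both strands and starts 57 bases before the transcription start.
Meg3, chr12:109540746-109541045, plus strand: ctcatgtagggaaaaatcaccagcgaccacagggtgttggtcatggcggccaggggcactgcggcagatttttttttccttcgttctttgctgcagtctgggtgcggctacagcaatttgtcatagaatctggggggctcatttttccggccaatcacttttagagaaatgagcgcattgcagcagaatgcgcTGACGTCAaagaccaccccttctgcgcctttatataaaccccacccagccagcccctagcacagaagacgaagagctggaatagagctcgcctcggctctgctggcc
This motif stood in 588 of 32851 RefSeq promoter windows of the same length (1.79%) and in 1 of the 7 windows matched to 6 of the 8 genes.

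Mirg hosts 26 annotated mature microRNAs from 14 hairpins, and those shown are the pair that shares a seed (bases 2 to 8, in capitals) and 2 others of the cluster, all from RefSeq.
miR-453: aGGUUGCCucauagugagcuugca
miR-496a-5p: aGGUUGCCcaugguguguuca
miR-134-5p: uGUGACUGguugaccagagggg
miR-410-3p: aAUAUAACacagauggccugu
The 26 sequences have 25 different seeds. Mature microRNAs were not measured in these libraries, whose counts refer to the host transcript.

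Libraries held 16088310 to 22975355 gene counts, and counting error is not small for Gm14033, Mirg and, in cerebellum, Miat. Gm14033 had 697 to 800 counts in control cerebella, 212 and 289 in KO cerebella and 6 to 11 in the cortices, and Mirg had 409 to 721 counts. Miat had 200, 136 and 203 counts in control cerebella and 237 and 780 in KO cerebella. Levels are given as CPM, counts scaled to library size with the TMM factors of all 10 libraries. Snx14 was at 42.7 and 39.8 CPM in the Het cerebella, 73.2 CPM in the WT cerebellum and 15.5 and 17.4 CPM in the KO cerebella. In cortex it was at 34.3, 34.9 and 50.8 CPM in controls and at 14.8 and 16.1 CPM in KO mice. Markers matched the tissue labels, since 12 granule cell genes summed to 5398 to 6292 CPM in cerebellum and 525 to 569 CPM in cortex. Cortex control 2 stood apart, with 4460 CPM of cortical excitatory neuron markers against 6690 to 7323 CPM in the other cortices. Its 10 oligodendrocyte markers summed to 9093 CPM against 4913 to 5366 CPM. Its 11 striatal markers summed to 4548 CPM, against 2051 and 1865 CPM in control cortices 1 and 3. In KO cortices 1 and 2 they summed to 1165 and 620 CPM, below all controls. Between genotypes in cortex all 11 striatal log2 fold changes were negative (median -1.70), with 0 called. The part of this difference in the cortex comparisons below was not tested. Choroid plexus markers were at 60.6 CPM in KO 1 cerebellum and at 1203 to 3414 CPM in the other cerebella. By Xist and Y-linked transcripts, the mice numbered 2 of both groups were male, unlike the other 3.

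By CPM, most of the 8 genes were abundant and 2 were not. Malat1 ranked 16th and Meg3 15th of all 55536 genes by mean CPM in control cerebellum, and in control cortex Meg3 ranked 4th. Snhg11 ranked 40th and 31st, and Rian 225th and 125th. Mirg ranked 7467th in control cerebellum and 7417th in control cortex. Gm14033 ranked 6484th in control cerebellum and 19177th in control cortex. By CPM, the label abundant therefore does not hold for Mirg and Gm14033, nor for Miat in cerebellum, where it ranked 11692nd. Neat1 ranked 1561st in control cerebellum and 1483rd in control cortex, but these ranks are not corrected for length. By CPM per kb of exon, Neat1 ranked 7983rd in control cerebellum, below Gm14033 at 3944th, and 7359th in control cortex.

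Levels of different genes were compared per kilobase of exon. In control cerebellum Malat1 had the highest level, 232 ± 6.15 CPM per kb (SD, n = 3), followed by Snhg11 at 150 ± 3.11 and Meg3 at 89.6 ± 2.37 CPM per kb. Rian followed at 25.9 ± 0.427, Gm14033 at 15.4 ± 0.874, Neat1 at 6.65 ± 0.567, Mirg at 3.87 ± 0.608 and Miat at 0.930 ± 0.226 CPM per kb. Neighbours in this order lay further apart than their SDs. In control cortex Malat1 was at 268 ± 34.6 CPM per kb (SD, n = 3), and Meg3 at 184 ± 30.5 and Snhg11 at 183 ± 19.8 CPM per kb could not be ordered within their spread. Rian at 39.7 ± 1.53 and Miat at 34.2 ± 9.45 CPM per kb could not be ordered either, and Neat1, Mirg and Gm14033 followed at 7.44 ± 3.28, 3.89 ± 0.492 and 0.216 ± 0.0220 CPM per kb.

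**Figure D1:**
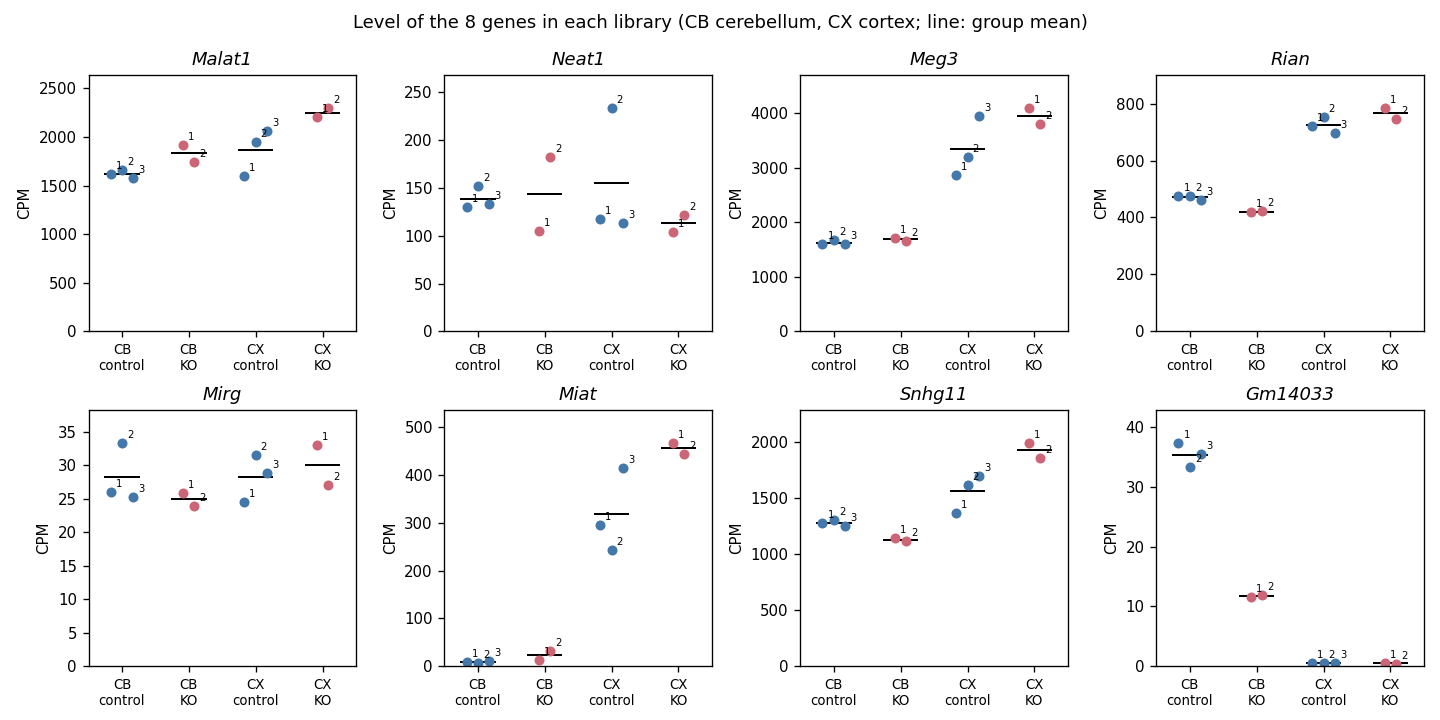
Level of each of the 8 genes in CPM (vertical axes, linear from 0, 1 scale per gene) in the 10 libraries, with the mouse number beside each point and a line at the group mean. Miat is at 6.29 to 32.3 CPM in cerebellum and 244 to 466 CPM in cortex, while Gm14033 is at 11.6 to 37.3 CPM in cerebellum and under 1 CPM in cortex.

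To ask whether loss of Snx14 altered these RNAs, both genotypes were compared in each tissue by edgeR's quasi-likelihood test. Calls required a Benjamini-Hochberg adjusted p under 0.05 over all genes tested and an absolute log2 fold change over 0.5. None of the 7 genes other than Gm14033 was called in cerebellum, where 1.55% of all 19447 genes tested were called, or in cortex, where 0% of 19202 were. Snx14 itself was called in cerebellum, at a log2 fold change of -1.66 (adjusted p 0.014). In cortex it was at -1.36 with an adjusted p of 0.754 and was not called. The cortex test thus missed the knocked-out gene, so the lack of calls there says little about the other genes. An unadjusted p under 0.05 was found for 2 of the 7 genes in cerebellum, Miat and Rian, and for 2 in cortex, Miat and Snhg11. Over all genes tested it was found for 2611 of 19447 in cerebellum and 1139 of 19202 in cortex. DESeq2 called none of the 7 in either tissue. The values of both genotypes were fully separated for 4 of these 7 genes in cerebellum, against 30.0% of all genes tested, and for 3 of 7 in cortex, against 24.7%. Replicates were separate mice. With 2 KO mice the intervals are wide, and missing the threshold does not show that a level was the same.

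**Figure D2:**
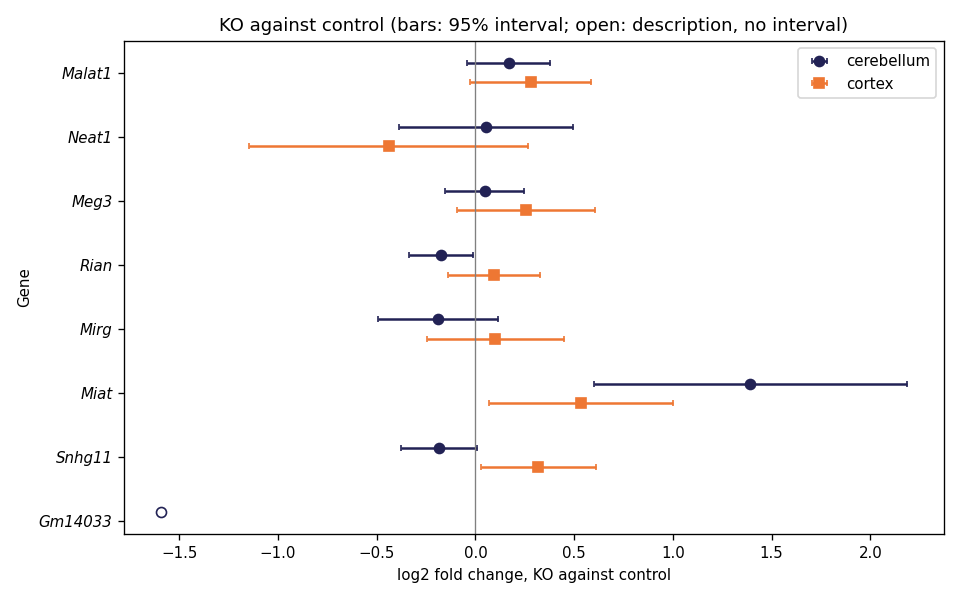
Log2 fold change of KO against control (horizontal axis) for each gene, with circles for cerebellum, squares for cortex and bars for the 95% interval from edgeR. Gm14033 is drawn open and without interval because it was picked for this value, and it has no cortex point because its counts there were too low to be tested. The intervals of Miat lie above 0 in both tissues before adjustment over all genes.

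Malat1, the nuclear speckle RNA, was at 1625, 1662 and 1576 CPM in control cerebella and at 1921 and 1745 CPM in KO cerebella. Both KO cerebella were above all controls, and the log2 fold change was 0.17 (SE 0.0919, 95% interval -0.04 to 0.38, adjusted p 0.5). In cortex Malat1 was at 1600, 1952 and 2064 CPM in controls and at 2202 and 2296 CPM in KO mice. The KO cortices were again the highest, with a log2 fold change of 0.28 (SE 0.133, 95% interval -0.03 to 0.59, adjusted p 0.867).

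The speckle proteins did not pass either. Of 17 genes for nuclear speckle and splicing factors, 0 were called in cerebellum and 0 in cortex. Their log2 fold changes were negative for 14 of 17 in cerebellum (median -0.09) and positive for 16 of 17 in cortex (median 0.12), beside medians over all genes tested of 0.00 in both. Son, a core speckle protein, was at 603 ± 12.4 CPM (SD, n = 3) in control cerebellum and 591 ± 19.4 CPM (SD, n = 2) in KO cerebellum. In cortex Son was at 425 ± 12.5 CPM in controls and 436 ± 0.805 CPM in KO mice. Srrm2, another speckle scaffold, was at 490 ± 75.4 CPM (SD, n = 3) in control cortex and 587 ± 45.6 CPM (SD, n = 2) in KO cortex. In cerebellum Srrm2 was at 508 ± 31.9 CPM in controls and 514 ± 23.5 CPM in KO mice.

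Neat1, the paraspeckle RNA, was at 130, 152 and 133 CPM in control cerebella and at 105 and 183 CPM in KO cerebella, so the KO values lay on either side of the controls. The log2 fold change was 0.06 (SE 0.193, 95% interval -0.39 to 0.50, adjusted p 0.945). It was -0.40 without KO 2 and 0.39 without KO 1, so a single KO library set its direction. In cortex Neat1 was at 117, 233 and 113 CPM in controls and at 104 and 122 CPM in KO mice. Control 2 was far above the rest, and the log2 fold change of -0.44 (SE 0.304, adjusted p 0.886) became -0.01 without it.

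The libraries with the most Neat1, cortex control 2, cerebellum KO 2 and cerebellum control 2, also had the most oligodendrocyte transcripts. The order did not hold lower down. KO 1 had the lowest Neat1 in each tissue, at 105 CPM in cerebellum and 104 CPM in cortex, but not the lowest oligodendrocyte sum. In cerebellum the 10 oligodendrocyte markers summed to 4520 to 6802 CPM in controls and to 6010 and 7708 CPM in KO 1 and KO 2. In cortex they summed to 4913 to 9093 CPM in controls and 5322 to 5366 CPM in KO mice, with the highest value in control 2. Neat1 amounted to 2.23% to 2.88% of this marker sum in control cerebella, to 1.75% and 2.37% in KO cerebella and to 1.94% to 2.56% in the cortices. The 2 mice with the highest Neat1 in each tissue, control 2 and KO 2, were also the male mice. The part of cell makeup and of sex in these values was not tested.

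Some Neat1 reads could be placed near its start. Of its 20771 exonic bases, 3 annotated windows of 110 to 152 bases lie 441, 731 and 1041 bases from the start, within the part that the short isoform covers. Each window was overlapped by 8.89% to 14.6% of Neat1 read pairs, although it holds 0.530% to 0.732% of the bases. A window of 86 bases in Malat1, 1.23% of its bases, was overlapped by 3.17% to 3.98% of Malat1 pairs. A pair is longer than these windows, so its share exceeds the share of bases even under even coverage, and fragment lengths were not used here. Reads from the rest of Neat1 could not be placed, because no annotated window lies there. Of the 16 genes for paraspeckle and Neat1-binding proteins, 0 were called in cerebellum (median log2 fold change -0.03) and 0 in cortex (median 0.00). Matr3 was at 538 and Hnrnpk at 432 CPM on average in control cerebellum and at 504 and 430 CPM in KO cerebellum.

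**Figure D3:**
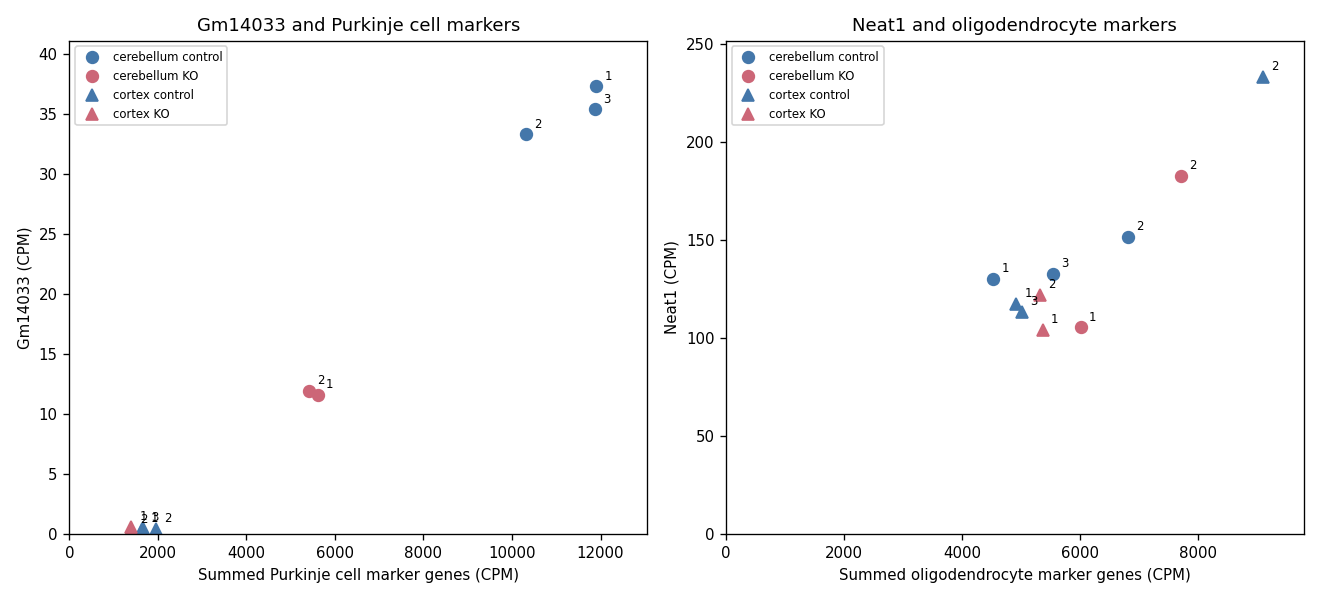
Gm14033 against the summed CPM of 12 Purkinje cell markers (left) and Neat1 against that of 10 oligodendrocyte markers (right), both axes linear from 0. Circles are cerebellum and triangles cortex libraries, and numbers are mice. The KO cerebella lie at about 12 CPM of Gm14033 and 5411 to 5606 CPM of markers, and the 3 libraries with the highest Neat1, from 152 to 233 CPM, have the 3 highest oligodendrocyte sums.

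Meg3, the imprinted RNA at the head of the maternal transcripts, was at 1598, 1671 and 1595 CPM in control cerebella and at 1706 and 1660 CPM in KO cerebella. The groups overlapped, with a log2 fold change of 0.05 (SE 0.0875, 95% interval -0.15 to 0.25, adjusted p 0.895). In cortex it was at 2869, 3195 and 3945 CPM in controls and at 4084 and 3797 CPM in KO mice, with a log2 fold change of 0.26 (SE 0.151, 95% interval -0.10 to 0.61, adjusted p 0.886). The 3 control cortices spread more widely than the 2 KO cortices, and the highest control value, 3945 CPM, was that of the WT mouse.

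Rian, the small nucleolar RNA host downstream of Meg3, was at 476, 477 and 463 CPM in control cerebella and at 420 and 422 CPM in KO cerebella. All KO values were below all control values with little spread, yet the log2 fold change of -0.17 (SE 0.0707, unadjusted p 0.0389) had an adjusted p of 0.336. In cortex Rian was at 722, 753 and 697 CPM in controls and 783 and 747 CPM in KO mice, with a log2 fold change of 0.09 (SE 0.0995, adjusted p 0.911). Mirg, the microRNA host, was at 25.3 to 33.3 CPM in control and 23.9 to 25.9 CPM in KO cerebella, and at 24.5 to 31.6 CPM in control and 27.1 to 33.0 CPM in KO cortices. Its log2 fold changes were -0.19 (SE 0.133, adjusted p 0.628) and 0.10 (SE 0.149, adjusted p 0.935).

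Ratios between the 3 imprinted genes within a library do not depend on library scaling. Per kb of exon, the ratio of Rian to Meg3 counts was 0.296, 0.283 and 0.288 in control cerebella and 0.244 and 0.252 in KO cerebella. The KO ratios were below all control ratios, and the exact permutation test on log2 ratios gave a two-sided p of 0.2, the smallest that 2 against 3 mice allow. In cortex the ratio was 0.250, 0.234 and 0.175 in controls and 0.190 and 0.195 in KO mice, and these groups overlapped (exact permutation p 0.6). Over the 12 ratio comparisons computed, the lowest Benjamini-Hochberg adjusted p was 0.3.

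**Figure D4:**
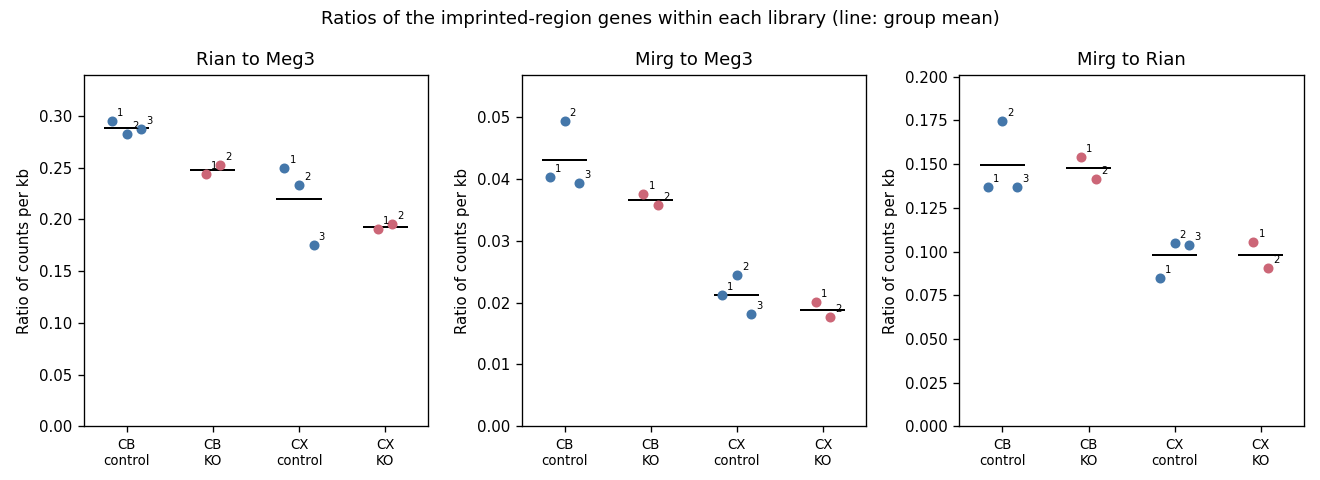
Ratios of counts per kb of exon between the imprinted-region genes in each library (vertical axes, linear from 0), with the mouse number beside each point and a line at the group mean. The ratio of Rian to Meg3 lies at 0.283 to 0.296 in control and 0.244 to 0.252 in KO cerebella, and both ratios of Mirg are higher in cerebellum than in cortex.

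Around these genes, no other gene was called between genotypes. Of the 8 genes listed for the Dlk1-Dio3 region and its flanks, 7 were tested in each tissue and 0 were called. Ppp2r5c, a phosphatase subunit gene of the flank, was at 117 CPM on average in control and 120 CPM in KO cerebella. Rtl1, the retrotransposon-like gene expressed from the paternal chromosome, lies between Meg3 and Rian and had log2 fold changes of -0.34 (adjusted p 0.638) in cerebellum and -0.12 (adjusted p 0.952) in cortex. Within 250 kb of Meg3, 0 of 25 genes tested in cerebellum and 0 of 24 in cortex were called.

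Miat, the neuronal RNA with the UACUAAC repeats, had the largest difference among the 7 genes. It was at 9.33, 6.29 and 10.3 CPM in control cerebella and at 13.0 and 32.3 CPM in KO cerebella. Both KO values were above all controls, but they differed from each other by more than KO 1 did from the controls. The log2 fold change was 1.39 (SE 0.346, 95% interval 0.60 to 2.18, unadjusted p 0.00346, adjusted p 0.0989). It was 0.58 (adjusted p 0.513) without KO 2 and 1.89 (adjusted p 0.0139) without KO 1, so KO 2 set its size. In cortex Miat was at 295, 244 and 415 CPM in controls and at 466 and 444 CPM in KO mice, with a log2 fold change of 0.53 (SE 0.200, unadjusted p 0.0298, adjusted p 0.797). The lowest cortex value was that of control 2, and without it the log2 fold change was 0.38 (adjusted p 0.188). The highest control value was that of control 3, the WT mouse, and without control 3 the log2 fold change was 0.77 (adjusted p 0.644). A difference between Het and WT controls was not tested.

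Other genes stood out in the KO 2 cerebellum beside Miat. After its values were seen, the 14562 genes at 3 CPM or more in that library were ranked by the gap between it and the highest of the other 4 cerebella on the log2(CPM + 1) scale. Miat was 16th, with a gap of 1.25. Lamp5, a membrane protein of forebrain neurons, was first at 14.5 CPM against 0.878 to 2.36 CPM in the other cerebella, and Meis2, a homeobox factor, was second at 17.9 CPM against 2.94 to 3.86 CPM. Glra1, a glycine receptor subunit, was 5th at 5.46 CPM against 0.494 to 1.17 CPM. Slc17a6, the vesicular glutamate transporter of many subcortical neurons, was 11th at 32.6 CPM against 6.30 to 11.4 CPM. Genes known only by number also ranked high. Gm10800 was 3rd at 99.2 CPM, with 30.5 CPM in control 2, 21.7 CPM in KO 1 and 2.01 and 1.22 CPM in controls 1 and 3. Gm21738, Gm10718, Gm11168 and Gm26870 held ranks 6 to 9. The 9 cortical excitatory neuron markers summed to 509 CPM in KO 2, 557 CPM in KO 1 and 552 to 590 CPM in controls, of which Slc17a7, a gene that granule cells also express, gave 364 CPM in KO 2. The 11 striatal markers summed to 519 CPM in KO 2, 551 CPM in KO 1 and 456 to 498 CPM in controls. Within that list Drd2, a dopamine receptor, was at 2.40 CPM in KO 2 and 0.545 ± 0.102 CPM in controls (SD, n = 3). Tac1, a neuropeptide precursor, was at 2.65 CPM in KO 2 and 0.655 ± 0.167 CPM in controls. Drd1, Rgs9 and Pde10a were lower in KO 2, at 0.166, 4.26 and 43.6 CPM against control means of 0.291, 4.64 and 54.9 CPM. Of the 10 striatal markers tested between genotypes in cerebellum, 8 log2 fold changes were positive, 2 were negative and 0 were called. The part of these transcripts in the Miat value was not tested.

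Miat counts are also shared with an antisense gene. Of its exonic bases 30.4% lie in another gene, 24.3% in Gm26953 on the opposite strand, and counting without strand gives such pairs to both. For the other 7 genes the shared part was 0% to 8.29%. Gm26953 counts were 24.1% to 35.5% of the Miat counts over the 10 libraries, and its profile was the most like that of Miat among 13461 genes at a mean of 5 CPM or more. The measure was the root mean square difference of centred log2(CPM + 1) over 10 libraries, 0.17 for Gm26953, and the next were Slit1, an axon guidance ligand, at 0.32 and Pak6, a kinase, at 0.34. Of the 8 genes for splicing proteins reported to bind the Miat repeat or its relatives, 0 were called in either tissue. Celf4 was at 344 CPM on average in control and 380 CPM in KO cerebella, and Qk at 326 and 352 CPM.

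Snhg11, a host of small nucleolar RNAs, had fold changes of opposite sign in the tissues, and neither passed the test. It was at 1272, 1303 and 1250 CPM in control cerebella and at 1140 and 1116 CPM in KO cerebella, all KO values below all controls. The log2 fold change was -0.18 (SE 0.0841, 95% interval -0.38 to 0.01, adjusted p 0.399). In cortex it was at 1367, 1610 and 1693 CPM in controls and at 1988 and 1856 CPM in KO mice, all KO values above all controls, with a log2 fold change of 0.32 (SE 0.125, unadjusted p 0.0358, adjusted p 0.808). The difference between both effects, tested as an interaction over 10 libraries, was -0.48 (SE 0.146, unadjusted p 0.00733) with an adjusted p of 0.325 by edgeR and 0.0265 by DESeq2. Neither fit had a term for the animal, although each mouse gave both tissues. By edgeR 0.102% of 20614 genes passed that test, for which an adjusted p under 0.05 was enough, and none of the 7 genes did. Of 15 other small nucleolar RNA hosts found in the tables, 14 were tested in each tissue and 0 were called. Snhg14, the host at the Prader-Willi region, was at 197 CPM on average in control and 180 CPM in KO cerebella, and Gas5 at 94.6 and 98.3 CPM.

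Gm14033 was at 37.3, 33.3 and 35.4 CPM in control cerebella and at 11.63 and 11.96 CPM in KO cerebella. The KO cerebella thus held 32.9% and 33.8% of the control mean, a log2 fold change of -1.59 (SE 0.0994), the value for which the gene was picked. Leaving out each library in turn gave log2 fold changes of -1.63 to -1.55. Gm14033 was selected on these same libraries, so nothing is read from the SE or from this range. None of the exonic bases of Gm14033 lies in another annotated gene.

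The fall of Gm14033 went with that of the Purkinje cell transcripts. The 12 Purkinje cell markers, of which 11 were called lower in KO cerebellum and 0 were at 0, summed to 11905, 10323 and 11877 CPM in controls and to 5606 and 5411 CPM in KO mice. The sum in KO cerebella was 48.5% ± 1.22 (SD, n = 2) of the control mean, against 33.4% ± 0.653 for Gm14033. Among the single markers the share ranged from 39.6% for Car8 to 76.9% for Pvalb. Gm14033 was selected on the size of its fall in these libraries and the markers were not, so nothing is read from its lower share. Gm14033 amounted to 0.298% to 0.323% of the marker sum in controls and to 0.207% and 0.221% in KO cerebella. Whether this follows from cell loss or from less RNA per cell was not tested. The 12 granule cell markers summed to 5398 to 6292 CPM in control and 5431 to 6275 CPM in KO cerebella. The 9 astrocyte markers, of which 4 were called higher, summed to 5619 to 6098 CPM in control and 6446 to 6747 CPM in KO cerebella. The 9 microglia markers, of which 2 were called higher, summed to 190 to 216 CPM in control and 279 to 287 CPM in KO cerebella. Their part in the result was not tested.

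The genes with the profile most like that of Gm14033 over the 10 libraries were Homer3, a postsynaptic scaffold of Purkinje cells (root mean square difference 0.22), Cep76, a centrosome protein (0.22), and Col18a1, a collagen (0.23). Homer3 is also 1 of the 12 markers. Homer3, Cep76 and Col18a1 were all called lower in KO cerebellum. The likeness measure includes the cerebellum values on which Gm14033 was selected, so these matches are a description and nothing is read from them. None of the nearest tested genes was called. Gm26794, which lies 0.079 kb beyond its end on the opposite strand, was at 28.1 ± 1.35 CPM (SD, n = 3) in control and 25.7 ± 4.802 CPM (SD, n = 2) in KO cerebella, with a log2 fold change of -0.14 (adjusted p 0.725). Kcnj3, a potassium channel subunit gene 2.54 kb away, had -0.16 in cerebellum and was not called. Galnt13, the nearest tested gene on the other side at 293 kb, changed by -0.37 (adjusted p 0.0178) and lay under the fold threshold.

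In cortex Gm14033 was near the limit of detection. Its counts summed to 26 in the 3 control cortices, or 0.473 CPM before TMM scaling (exact Poisson 95% interval 0.309 to 0.692), and to 17 in the 2 KO cortices, or 0.494 CPM (0.288 to 0.791). These intervals cover counting error only. The gene did not pass the count filter there, and a difference was not detectable at this depth.

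To ask how the 8 genes differ between the tissues, cerebellum was compared with cortex in 1 fit of all 10 libraries. This fit had no term for the animal, so both tissues of a mouse were treated as independent. The fit with the animal as block is among the alternatives described below. In controls 3 of the 7 genes other than Gm14033 were called, against 40.9% of all 20614 genes tested, and in KO mice 4 of 7, against 35.6%. Meg3, Rian and Miat were lower in cerebellum in both genotypes, and Snhg11 was called lower in KO mice. These comparisons use the same cerebellum libraries as those between genotypes and are not independent of them.

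**Figure D5:**
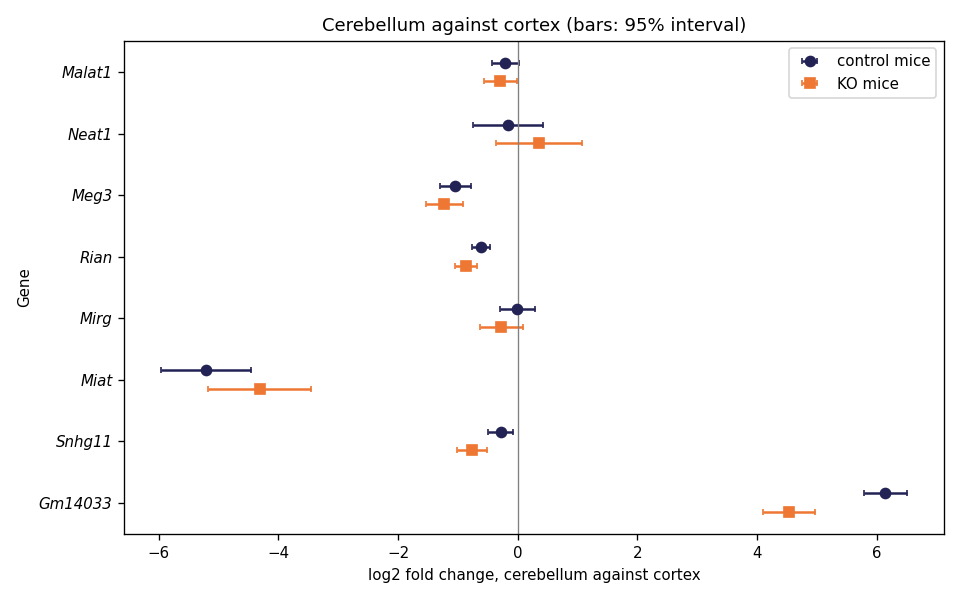
Log2 fold change of cerebellum against cortex (horizontal axis) for each gene, with circles for control and squares for KO mice and bars for the 95% interval from edgeR. The values of Gm14033 are a description. Nothing is read from its bars, since the gene was selected on these cerebellum libraries. Miat lies at -5.20 and -4.31 and Gm14033 at 6.14 and 4.53, while the intervals of Mirg and Neat1 include 0 in both genotypes.

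Miat showed the largest cortical excess. In controls its log2 fold change was -5.20 (SE 0.341, adjusted p 2.63e-07), from 318 ± 87.8 CPM (SD, n = 3) in cortex to 8.65 ± 2.10 CPM (SD, n = 3) in cerebellum. In KO mice it was -4.31 (SE 0.390, adjusted p 6.08e-06), and it was -5.13 without the KO 2 cerebellum and -3.82 without the KO 1 cerebellum. The Celf genes of the splicing protein list went the same way in controls: Celf5 was called at -3.42, Celf6 at -2.31, Celf3 at -1.73, Celf2 at -1.21 and Celf4 at -0.79, and Celf1, Sf1 and Qk were not called. The difference between the genotypes for Miat was 0.89 (95% interval -0.14 to 1.92, adjusted p 0.672).

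Within the imprinted region Meg3 and Rian were called lower in cerebellum and Mirg was not. In controls Meg3 had a log2 fold change of -1.04 (SE 0.114, adjusted p 1.74e-05), Rian of -0.62 (SE 0.0689, adjusted p 1.94e-05) and Mirg of -0.01 (SE 0.135, 95% interval -0.30 to 0.29, adjusted p 0.976). In KO mice the values were -1.23 (adjusted p 3.85e-05), -0.86 (adjusted p 1.15e-05) and -0.27 (adjusted p 0.205). The ratio of Mirg to Meg3 per kb was 0.0431 ± 0.00557 in control cerebellum and 0.0213 ± 0.00318 in control cortex (SD, n = 3 each). The ratio of Rian to Meg3 was 0.289 ± 0.00638 and 0.220 ± 0.0392. For both ratios all control cerebella were above all control cortices, with an exact permutation p of 0.1, the smallest for 3 against 3. Of the 8 listed genes of the region and its flanks, 4 were called lower in cerebellum, among them Begain, a postsynaptic protein gene, at -2.27 and Rtl1 at -1.41, and Dio3os was called higher, beside 40.9% of all genes called in either direction.

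Malat1 and Neat1 were not called between the tissues. For Malat1 the log2 fold change was -0.21 (SE 0.103, adjusted p 0.108) in controls and -0.30 (SE 0.126, adjusted p 0.0780) in KO mice. For Neat1 it was -0.16 (SE 0.266, adjusted p 0.631) in controls, 0.25 without cortex control 2, and 0.35 (SE 0.327, adjusted p 0.413) in KO mice. Snhg11 had -0.29 (SE 0.0922, adjusted p 0.0206), under the fold threshold, in controls and -0.77 (SE 0.114, adjusted p 0.000252) in KO mice. Of the 17 speckle genes, 3 were called higher in control cerebellum and 0 lower: Srsf1 (0.75), Srsf3 (0.54) and Son (0.51), as log2 fold changes. Of the 16 paraspeckle genes, 2 were called higher and 0 lower: Tardbp (0.55) and Hnrnpm (0.66). Both shares were below the 40.9% of all genes tested that were called in this comparison.

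For Gm14033 the log2 fold change of cerebellum against cortex was 6.14 in controls and 4.53 in KO mice. It entered this fit only through its counts in cerebellum, the libraries it was selected on, so these values are given without a test. All 12 Purkinje cell markers were called higher in control cerebellum, with a median log2 fold change of 3.71. For Gm14033 the KO effect in cerebellum minus that in cortex was -1.61, given without a test.

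Among 15 other brain long noncoding RNAs found in the tables, 0 were called between genotypes in cerebellum (14 tested) or in cortex (15 tested). Their median log2 fold change in KO cerebellum was 0.20 and in KO cortex 0.05. Between tissues 10 of the 15 were called in controls, 3 higher and 7 lower in cerebellum, beside 40.9% of all genes tested. 2900097C17Rik was at 754 CPM on average in control cerebellum and 1448 CPM in control cortex, Tunar at 38.3 and 7.07 CPM, and Peg13 at 327 and 286 CPM without being called.

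The profiles most like those of the remaining genes over the 10 libraries, by the same root mean square difference, were Cep131 for Malat1 (0.08), Arsg for Neat1 (0.10), Gm28289 for Meg3 (0.11), Dhx57 for Rian (0.06), Amdhd2 for Mirg (0.07) and Memo1 for Snhg11 (0.07). For Neat1 the next were Gm27533 and Gm28006, which lie within it and share its reads.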

How the data were processed

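Each of the 10 libraries has a deposited table of unnormalized counts of read pairs for each gene. The authors made strand-specific mRNA-Seq libraries, aligned the reads with STAR (build GRCm38) and used featureCounts to count exonic pairs (Subread 2.0.1, per the labels). Strand was not used and a pair was counted for every gene it overlapped, so overlapping and antisense genes share reads. Here, 55536 gene entries were matched to GENCODE M21, and 26345 other entries (0.160% to 0.926% of counts) were left out. edgeR 4.0.16 in R 4.3.3 was fitted on all genes passing filterByExpr (count minimum 10) with TMM factors, within each tissue for KO against control and over 10 libraries otherwise. The method was tested on simulated data. DESeq2 1.42.0, no filter, no TMM factors, the replicate block and leaving out each library were alternatives.

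The members and lists were chosen with earlier results of these data known. Named genes were the 8 members, Snx14, called or most abundant list genes, the nearest tested genes, overlapping genes and the most similar profiles. Others are described as chosen after their values were seen. The animal numbers in the labels pair the tissues. Deviations from group means correlated between tissues of the same animal with r of 0.215 to 0.445, and between different animals with r of up to 0.23. KO and control numbers within a tissue mark no shared animal.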

Additional observations from a re-analysis of the deposited data

How the results depend on the processing

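In cerebellum 302 genes were called between genotypes, 842 with no filter on low counts and 133 to 400 without 1 library. In cortex 0 were called by edgeR (1139 at an unadjusted p under 0.05), 45 by DESeq2, 380 with no filter and 0 to 98 without 1 library, 98 without control 2. For the difference of the KO effect between tissues 21 were called, 221 by DESeq2, 599 with no filter and 3 to 117 without 1 library, 117 without cortex control 2. With no filter the prior degrees of freedom were infinite and its p-values are not reliable. The replicate block gave 181 calls in cerebellum and 3 in cortex, where numbers pair no animals, and 128 for the difference between tissues, where the animal is the block. It changed no call of the 8 genes. Between tissues no count moved by over 1.5 times, and without TMM factors the median of all genes moved to 0.12 in controls and 0.13 in KO mice.

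Of the 8 genes, Neat1 and Mirg changed sign under some alternatives. Neat1 in cerebellum was -0.021 under the replicate block and -0.40 to 0.39 without 1 library, and between tissues -0.36 to 0.25 in controls and -0.10 to 0.69 in KO mice. Mirg between control tissues was 0.0074 with no filter, 0.10 without TMM factors and -0.14 to 0.068 without 1 library, and in KO cortex -0.059 to 0.24. The cause was not tested. Depth limits Gm14033 in cortex, and 2 KO mice limit all comparisons between genotypes.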
